A study of Mus musculus with 12 samples.

Results

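Livers of mice fed a choline-deficient, amino acid-defined, high-fat diet (CDAHFD) for 6 weeks were compared with livers of mice fed it for 1 week. The arrays were chosen by their titles, 2 for each week, which is 4 of the 12 arrays in the study. All mice were C57BL/6NJcl males of no stated genetic change, aged 7 weeks at the 1-week sampling and 12 weeks at the 6-week sampling. The diet holds 60% of its calories as fat and 0.1% methionine by weight, and the control mice ate CE-2 pellets, so the diets differ in more than choline. The 4 control arrays of the same weeks, again 2 for each week, served as the background, since they differ in week, age and slide alike but not in the diet. The labels do not say whether the 2 arrays of a group came from different mice, so the p-values measure only how far these arrays varied, which may be technical variation.

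Choline is needed to make phosphatidylcholine, which coats the lipoproteins that carry fat out of the liver. Without it, fat stays in hepatocytes, hepatocytes are injured, and macrophages that take up lipid and debris gather, known by TREM2, GPNMB and osteopontin (Spp1). Stellate cells, the vitamin A-storing pericytes of the sinusoid, then turn into collagen-making myofibroblasts, and the model is used for steatohepatitis that goes on to fibrosis. In male mice, pulses of growth hormone hold up a set of hepatocyte genes, among them major urinary proteins, Slco1a1 and Hsd3b5, that is lost in many kinds of liver disease.

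Each array measured RNA from whole liver, so fewer cells of a type and less RNA per cell cannot be told apart. Levels are log2 normalised intensities, and differences are 6 weeks minus 1 week on that log2 scale, so that 1 unit is a doubling. From 45.4% to 49.7% of probes were well above background on the CDAHFD arrays and 40.4% to 44.4% on the control arrays. The hepatocyte markers Alb, Ttr, Apoa1 and Serpina1a lay between 14.12 and 16.70 on the 4 CDAHFD arrays, the labelled tissue. The arrays of weeks 1 and 2 lay on 1 slide and those of week 6 on the other, so week, age and slide cannot be told apart within a diet; a slide effect common to both diets cancels when the change on CDAHFD is set against the control change. On control replicate 1 at 1 week, 382 bright spots lay 8-fold or more under the remaining arrays, against 0 to 3 on those arrays, and 292 genes were read in those regions. The SD of the difference between the 2 arrays of a group was 0.32 on CDAHFD at 1 week, 0.49 on CDAHFD at 6 weeks, 0.85 in controls at 1 week and 0.36 in controls at 6 weeks.

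Of 13900 genes tested, 956 differed between 6 weeks and 1 week of CDAHFD at an adjusted p under 0.05, written here as called, which is 6.88% of those tested. Of these, 538 were higher (3.87%) and 418 lower (3.01%), a share of 56.3% higher that was 77.3% with median centring of the arrays, and 376 differed at least 2-fold. The median difference over all genes was -0.005. Over the same weeks the control livers had 2212 calls, 15.9% of genes, with 1192 higher (8.58%) and 1020 lower (7.34%), a count that was 682 without control replicate 1 at 1 week, the array with the dim spots, and 549 and 629 without control replicates 1 and 2 at 6 weeks. With only the dim spots of control replicate 1 at 1 week masked, 2273 genes were called in controls. The change on CDAHFD differed from the control change in 748 genes (5.38%), by a higher change on CDAHFD in 349 (2.51%) and a lower one in 399 (2.87%). That count was 129 and 245 without control replicates 1 and 2 at 6 weeks, 371 without control replicate 1 at 1 week, 170 and 189 without CDAHFD replicates 1 and 2 at 1 week, and 372 and 371 without CDAHFD replicates 1 and 2 at week 2. Both conditions were met, in 1 direction, by 314 genes (2.26%), 200 of them higher (1.44%) and 114 lower (0.82%). Without CDAHFD replicate 1 or 2 at 1 week this was 88 and 31 genes, without control replicate 1 or 2 at 6 weeks 69 and 104, without control replicate 1 at 1 week 182, and without either CDAHFD array of week 2, 164. Between week 1 and week 2 of CDAHFD, which shared a slide, 39 genes were called (0.281%), and between week 2 and week 6, 2 genes were called (0.0144%), 0 of them higher, although 1304 had an unadjusted p under 0.05 in the same limma fit.

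The calls rested to a large degree on replicate 2 of the 1-week CDAHFD arrays. Without it 71 genes were called, and 69 of the 956 kept their call. Without CDAHFD replicate 1 at 1 week 363 genes were called, without CDAHFD replicate 1 at 6 weeks 580, and without CDAHFD replicate 1 or 2 at week 2, 583 and 585. The call was kept with any single array of the 12 left out by 67 genes, 35 higher and 32 lower, and 55 of these also differed from the control change. The difference from the control change was read in the fit of all 12 arrays and was not followed for these genes through the fits with an array left out. In fits that leave 1 array in a group, that array is taken to vary like the other groups. The genes that kept their call in all 12 such fits are pointed out below, and every other called gene named with its call lost it at least without CDAHFD replicate 2 at 1 week.

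**Figure D1:**
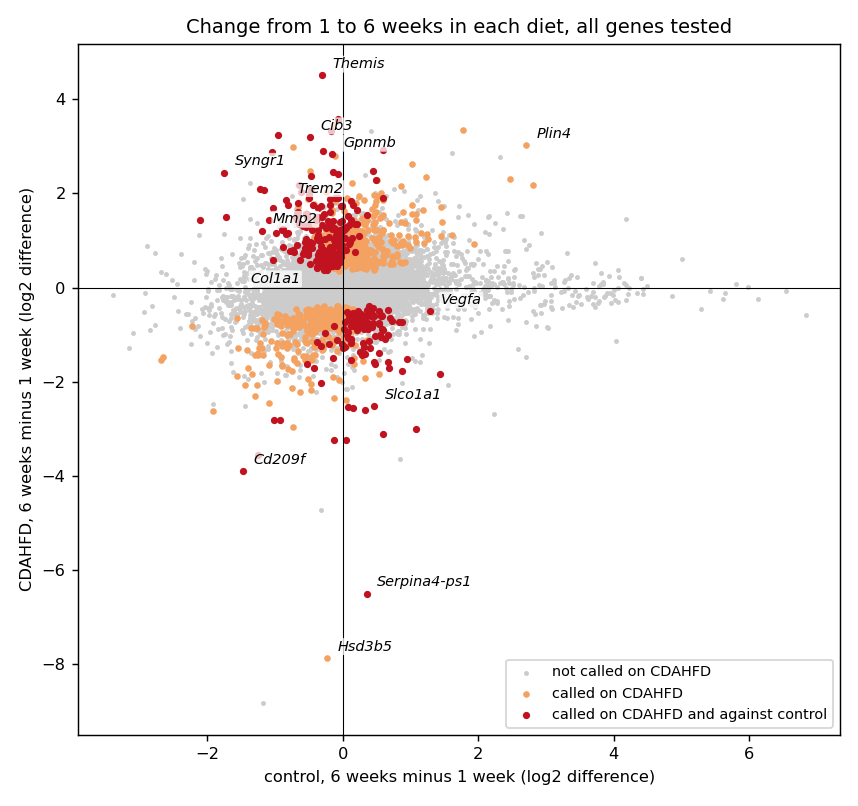
Log2 difference between 6 weeks and 1 week on CDAHFD (vertical axis) against the same difference on the control diet (horizontal axis), 1 point for each of the 13900 genes. Red points are the 314 genes called on CDAHFD and against the control change, and orange points the other calls on CDAHFD; Themis stands at the top (4.51), Serpina4-ps1 and Hsd3b5 at the bottom, and Col1a1 lies near 0 on the vertical axis and below 0 on the horizontal axis.

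Among the genes higher at 6 weeks on CDAHFD and against the control change, the 15 with the largest differences included several that were not measurable at 1 week. These 15, and the 15 falls below, leave out predicted genes and unnamed clones. They were taken only where both 6-week CDAHFD arrays lay beyond both 1-week arrays, so that separation is not a result. Themis, an adaptor of T cell receptor signalling, read 2.36 and 1.65 on the 1-week arrays, not well above background, and 6.59 and 6.44 at 6 weeks. The rise was at least 11.1-fold (adjusted p = 8.89e-04). Such a bound sets the brighter week's mean against a value for each array of the dimmer week. That value is the higher of the probe's own signal and the lowest signal well above background. The controls stayed below background at both weeks. Npy, a neuropeptide, and Meltf, an iron-binding melanotransferrin, were also below background at 1 week and rose at least 3.09-fold and 3.24-fold. Also below background at 1 week were Gldn (at least 4.70-fold), which is known from the nodes of Ranvier, Trim29 (4.19-fold), the sodium channel gene Scn10a (3.02-fold) and the protease gene Prss46 (3.54-fold).

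The other 8 were measured at both weeks. Cib3, a calcium-binding protein gene, rose from 10.09 and 9.34 to 13.08 and 12.74, a difference of 3.20 ± 0.30 (SE, 2 arrays for each week; adjusted p = 0.0017), while the controls lay between 8.35 and 9.43. Sult1e1, which encodes oestrogen sulfotransferase, rose from 7.07 and 7.28 to 10.30 and 9.88. Its control levels at these weeks lay between 3.25 and 4.18, so it was already higher on CDAHFD at 1 week. Cd207 (langerin, a lectin of Langerhans cells and some dendritic cells) rose by 2.48 and Fndc10 by 2.44, and both had an adjusted p of 2.35e-04, the lowest of the comparison, which other genes share. Ntrk2, the receptor of brain-derived neurotrophic factor, rose by 3.25 from 5.05 and 4.89 to 7.55 and 8.89. H19, an imprinted noncoding RNA of fetal liver, rose by 2.88, Syngr1, a synaptic vesicle gene, by 2.44 and Gpnmb by 2.83. Themis, Npy, Meltf, Ntrk2, Cib3, Sult1e1, Gpnmb, Cd207 and Fndc10 kept their call with any array left out. The other 6 lost it without CDAHFD replicate 2 at 1 week, with adjusted p from 0.0692 to 0.159.

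The steepest of the 15 falls chosen in this way, all also called against the control change, was that of Serpina4-ps1, a transcribed serpin pseudogene. It read 11.77 and 12.49 at 1 week and 4.60 and 6.66 at 6 weeks, a difference of -6.50 ± 0.85 (SE; adjusted p = 0.0108), with the controls of the same weeks between 12.00 and 12.91 and those of week 2 at 15.44 and 13.67. Its 6-week arrays lay 2.06 apart, and its call was lost without CDAHFD replicate 2 at 1 week (adjusted p = 0.0999). The macrophage lectin gene Cd209f fell from 5.42 and 5.54 to below background, at least 4.10-fold, and the haemoglobin scavenger receptor gene Cd163 from 3.93 and 3.93 to below background, at least 1.40-fold. Acsm2, a medium-chain acyl-CoA synthetase gene (at least 2.72-fold), Olfr125 (2.40-fold), Ugt2a1 (2.52-fold), the Wnt inhibitor gene Wif1 (3.55-fold), B3gnt5 (1.74-fold), Ptpn3 (1.09-fold) and Tmprss9 (1.56-fold) also passed from measured to below background. Dct fell by 3.10, Mup6 by 2.82, Pax2 by 2.82, Slco1a1 by 2.53 and Mup21 by 2.03. The other Pax2 probe differed by -0.75, and the mean of the probes by -1.78 (adjusted p = 0.0364). Cd209f, Acsm2, Olfr125, Mup6, Pax2, Cd163, Slco1a1 and Mup21 kept their call with any array left out. The other 7 lost it without CDAHFD replicate 2 at 1 week, with adjusted p from 0.0522 to 0.266. With a normexp background correction, which pulls dim probes together, Npy, Meltf, Gldn, Trim29, Scn10a, Prss46, Cd209f, Acsm2, Olfr125, Ugt2a1, Wif1, Cd163, B3gnt5, Ptpn3 and Tmprss9 were not called on CDAHFD.

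**Figure D2:**
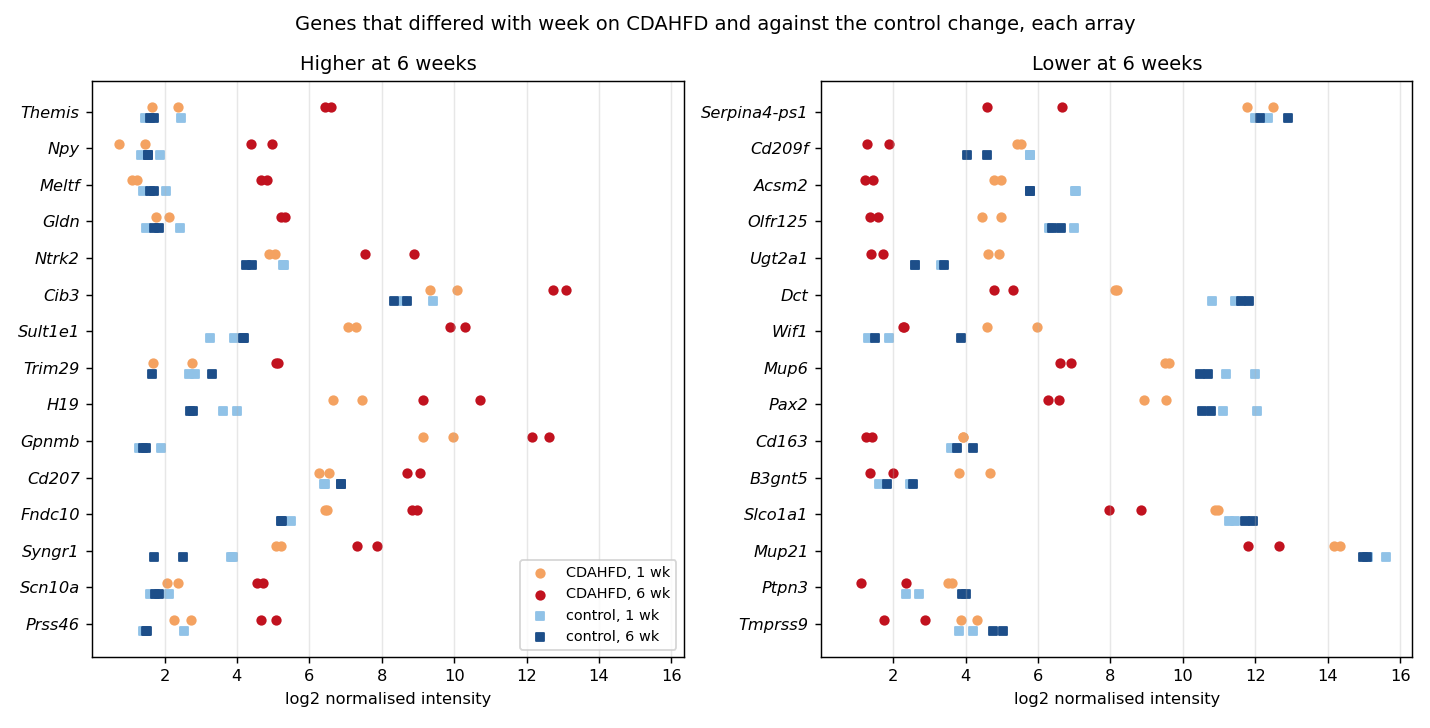
Log2 normalised intensity of the 15 genes that rose most (left) and the 15 that fell most (right) on CDAHFD and against the control change, 1 point per array; circles are CDAHFD and squares control arrays at 1 and 6 weeks. Genes were taken only where both 6-week CDAHFD points lay beyond both 1-week points, so that separation was a condition of choice.

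Lipid-associated macrophage genes rose together between 1 and 6 weeks. Of 24 measured markers, 14 rose and 0 fell, with a median difference of 1.07 against -0.005 over all genes, and a control median of -0.13. Over all genes 3.87% were called higher and 3.01% lower on CDAHFD, and 8.58% and 7.34% in controls. These shares are the background of each list count given here and below. Trem2, the lipid receptor that names this state, read 10.85 and 10.35 at 1 week, 11.92 and 11.92 at 2 weeks and 12.50 and 12.43 at 6 weeks. All later arrays stood above both 1-week arrays, and most of the difference of 1.86 ± 0.21 (adjusted p = 0.00223) was present at 2 weeks (1.32, adjusted p = 0.0397, within 1 slide). In controls Trem2 fell by 0.83 (adjusted p = 0.024). Gpnmb read 9.97 and 9.14 at 1 week and 12.61 and 12.15 at 6 weeks, while the 4 control arrays lay between 1.29 and 1.91, not well above background. Spp1 rose by 1.85 (adjusted p = 0.0037), Capg, an actin-capping protein gene, by 1.23, and Lpl, which encodes lipoprotein lipase, by 1.5. Of the 24 markers, 9 were called against the control change as well. Of the 14 calls, 13 were kept without CDAHFD replicate 1 at 1 week, 4 without replicate 2 at 1 week, 10 without replicate 1 at 6 weeks and 13 without replicate 2 at 6 weeks. Those 4 were Trem2, Gpnmb, Ctsd and Capg. The median was 0.93 without CDAHFD replicate 2 at 1 week.

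Lysosomal genes, which overlap with that list, moved the same way. Of 38 measured, 11 rose and 0 fell, with a median of 0.36 and a control median of -0.11. Ctsd, the aspartic protease cathepsin D, read 13.82 and 13.77 at 1 week and 14.64 and 14.65 at 6 weeks (0.85 ± 0.10, adjusted p = 0.00233), and its controls lay between 13.23 and 13.32. Ctsk, cathepsin K, which cuts collagen, rose from 7.82 and 7.26 to 9.53 and 9.35 (1.90, adjusted p = 0.00185). In both genes the 6-week arrays stood clear of the 1-week arrays. Gusb, Cd68 and Atp6v1a, a subunit of the proton pump, rose by 0.80, 1.07 and 0.55. The other Atp6v1a probe differed by 0.06, and the mean of the probes by 0.30 (adjusted p = 0.177). Of the common lysosomal genes, Lamp1 differed by 0.12, with replicate 2 at 1 week missing as an outlier spot, and Ctsb by 0.21, and neither was called (adjusted p = 0.665 and 0.266). Of the 11 calls, 2 (Ctsd and Ctsk) were kept without CDAHFD replicate 2 at 1 week, 6 without replicate 1 at 1 week, 4 without replicate 1 at 6 weeks, and 5 without CDAHFD replicate 1 at week 2.

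Promoters of 4 of these genes are printed here because they hold letters that are often read as binding motifs. All 4 genes were called higher by the probe used. Promoters of the other called genes of these lists, with or without such letters, are not printed. The sequences are the 250 bases before the start of transcription in RefSeq annotation of GRCm38.p6, on the gene's strand, with the motif in capitals. In Ctsd (chr7:142387828-142388077, minus strand) and Atp6v1a (chr16:44139260-44139509, minus strand) the capitals mark CACGTG, the E-box read by the lysosomal regulators of the MiT/TFE family among others.
Ctsd: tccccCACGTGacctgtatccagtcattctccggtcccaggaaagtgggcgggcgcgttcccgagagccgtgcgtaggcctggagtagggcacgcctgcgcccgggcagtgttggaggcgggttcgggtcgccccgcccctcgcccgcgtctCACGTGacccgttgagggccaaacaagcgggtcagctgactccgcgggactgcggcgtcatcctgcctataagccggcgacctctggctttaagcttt
Atp6v1a: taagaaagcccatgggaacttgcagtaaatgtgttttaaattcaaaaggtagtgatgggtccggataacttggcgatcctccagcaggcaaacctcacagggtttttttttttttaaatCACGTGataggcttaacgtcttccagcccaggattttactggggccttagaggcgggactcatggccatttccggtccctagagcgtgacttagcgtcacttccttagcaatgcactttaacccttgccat
In Trem2 (chr17:48346151-48346400, plus strand) and Cd68 (chr11:69666171-69666420, minus strand) the capitals mark TGANTCA, with any base at N. That pattern is looser than the consensus of AP-1 factors, among them the Fos and Jun proteins, which has C or G at N. The Cd68 matches have G there, while the Trem2 match has A and meets only the looser pattern.
Trem2: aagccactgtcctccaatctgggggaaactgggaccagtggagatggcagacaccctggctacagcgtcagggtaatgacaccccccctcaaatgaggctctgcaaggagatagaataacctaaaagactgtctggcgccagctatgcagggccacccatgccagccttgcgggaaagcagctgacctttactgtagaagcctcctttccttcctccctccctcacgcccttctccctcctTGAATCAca
Cd68: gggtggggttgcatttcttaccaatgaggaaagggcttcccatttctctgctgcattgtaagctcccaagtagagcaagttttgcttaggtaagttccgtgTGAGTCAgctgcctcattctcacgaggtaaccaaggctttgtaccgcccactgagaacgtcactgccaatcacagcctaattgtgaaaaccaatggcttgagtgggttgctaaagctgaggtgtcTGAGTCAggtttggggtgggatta

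Both strands were searched, and the motifs do not share a common core. The called lipid-associated macrophage and lysosomal genes number 21, of which 17 had a promoter in the table, 21 promoters in all. CACGTG stood in 2 of these 21 (9.52%), against 6.02% of the 32851 promoters of the table, and TGANTCA in 4 (19%), against 6.75%. The 4 genes with TGANTCA, named after the search, were Trem2, Cd68, Ms4a7 and Itgax. The share was much the same in the called sex-biased genes, a list given below. There TGANTCA stood in 2 of 11 promoters (18.2%), those of Ugt2b1 and Ugt2b38, and CACGTG in 0. Matches with C or G at N were not counted apart. These are matches of letters, with no reading of binding.

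Among 27 general monocyte and macrophage markers 3 rose and 0 fell, with 15 higher and 0 lower at an unadjusted p under 0.05 in limma, with a median of 0.65 and a control median of 0.16. They were Clec4d, a lectin that senses mycobacterial and fungal lipids (1.37), and the NADPH oxidase genes Cybb (1.33) and Ncf4 (0.82). Adgre1, a general marker of mouse macrophages, differed by 0.57 (adjusted p = 0.435) and Ccr2, the receptor of recruited monocytes, by -0.29 (adjusted p = 0.787). Ccr2 stood at 7.65 and 6.56 at 1 week and 6.88 and 6.76 at 6 weeks, so the weeks overlapped. Without CDAHFD replicate 2 at 1 week, or without replicate 1 at 6 weeks, 0 of the 3 calls were kept. Among 21 chemokines 4 rose, Cxcl14 (1.05), Cx3cl1 (1.03), Cxcl16 (0.64) and Ccl9 (0.54), and Cxcl13, which draws B cells, fell by 1.93 (-0.51 with normexp, adjusted p = 0.365). The inflammatory chemokines Ccl2 and Cxcl10 differed by 0.05 and -0.70 and Ccl5 by 0.86, none called. All 5 chemokine calls were lost without CDAHFD replicate 2 at 1 week, with adjusted p from 0.0791 to 0.283.

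Mfge8, a bridge between dying cells and the phagocytes that engulf them, was picked out after its values were seen because its change differed from the control change with the lowest adjusted p of all genes (0.00149). It read 12.60 and 12.32 at 1 week and 13.99 and 14.05 at 6 weeks, a rise of 1.55 (adjusted p = 2.35e-04), against -0.54 in the controls, and kept its call with any array left out.

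The collagens that mark fibrosis were, but for 1, not called between 1 and 6 weeks. Of 16 fibrillar and basement membrane collagen genes, 1 rose and 0 fell, beside 3.87% of all genes called higher, with a median of 0.15. At an unadjusted p under 0.05 in limma 4 were higher and 0 lower. At 1 week 14 of them were already called higher on CDAHFD than in controls and 1 lower, and at 6 weeks 13 and 1. Of all genes tested, 25.9% and 24.5% were called higher on CDAHFD than in controls at these weeks. Col1a1, the main chain of type I collagen, read 11.13 and 10.83 at 1 week, 10.68 and 11 at 2 weeks and 10.85 and 11.01 at 6 weeks, a difference of -0.05 ± 0.25 (adjusted p = 0.938). Its weeks overlapped fully on CDAHFD. Col3a1 differed by 0.12 (adjusted p = 0.828) and Col4a1 by 0.20. In the controls Col1a1 fell from 8.01 and 8.8 to 6.67 and 7.09 (-1.53, adjusted p = 0.00507), so the gap between diets was wider at 6 weeks although the CDAHFD level was not. The collagen list had 5 falls and 2 rises in controls, with a median of -0.40. Col6a1 rose by 0.74 on CDAHFD (adjusted p = 0.0414) and lost its call without any 1 of the 4 CDAHFD arrays of these weeks (adjusted p = 0.296 without replicate 2 at 1 week). 

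Some genes that shape the matrix were called higher. Of 23 matrix proteases and inhibitors 6 rose and 0 fell, with a median of 0.60 and a control median of -0.35. Timp2, an inhibitor of metalloproteinases, read 11.06 and 10.88 at 1 week and 12.13 and 12.06 at 6 weeks (1.13 ± 0.13, adjusted p = 0.00233), against -0.37 in controls, not called. Adam8, a myeloid sheddase, rose from 9.54 and 8.90 to 11.74 and 11.27 (2.28, adjusted p = 0.00289), of which 1.74 was present at 2 weeks. Both 6-week arrays lay above both 1-week arrays in each gene. Ctsk, described above, is also in this list. Mmp7, a metalloproteinase of ductular and injured epithelium, read 4.64 and 2.12 at 1 week, where 1 array was above background, and 6.78 and 6.88 at 6 weeks. Its fitted difference of 3.45 (adjusted p = 0.0176) takes in the 1-week array below background, and was 2.19 without that array and 1.52 with normexp. Mmp2 rose by 1.21 while it fell at least 2.13-fold in controls, and Mmp23 rose by 0.82. Timp1, a marker of active fibrosis, differed by 0.03 (adjusted p = 0.975) and Mmp12, the macrophage elastase, by 1.79 (adjusted p = 0.148). The other Mmp12 probe differed by 1.64 (unadjusted p = 0.00178 in limma). Timp2, Adam8 and Ctsk kept their call with any array left out; Mmp2, Mmp7 and Mmp23 lost theirs without CDAHFD replicate 2 at 1 week (adjusted p from 0.091 to 0.285).

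Of 28 proteoglycans, glycoproteins and crosslinkers 2 rose and 0 fell, with a median of 0.45. Of all genes tested 6.88% were called, with 3.87% of all genes called higher and 3.01% lower. Dcn, decorin, which binds collagen fibrils and TGF-beta, rose from 14.11 and 14 to 14.92 and 15.03 (0.92, adjusted p = 0.00317) and kept its call with any array left out. Loxl2, a collagen crosslinker, rose by 0.57 by its brightest probe, while its other probes differed by -0.58 and -0.35. By the mean of its probes it differed by -0.12. Lox, Fn1 and Lum differed by -0.18, -0.28 and 0.65, none called. In the TGF-beta list 3 of 20 rose, Pdgfb (1.24), the latent TGF-beta binding protein gene Ltbp3 (1.11) and Tgfbi (0.54), while the ligand Tgfb1, the receptor Tgfbr2 and the target Ccn2 differed by 0.23, 0.35 and 1.34 without a call. Of 22 markers of stellate cells and myofibroblasts, which lay down these collagens, 2 rose and 0 fell, with 8 higher and 0 lower at an unadjusted p under 0.05 in limma and a median of 0.23. The 2 were Pdgfra (1.15) and Cygb (0.81), and Pdgfra was read in a region of dim spots on control replicate 1. Acta2, the actin of myofibroblasts, differed by -0.41, Tagln by 0.08, Lrat, which stores vitamin A in quiescent stellate cells, by 0.12, and Pdgfrb by 0.56, none called. The 5 calls of these lists were lost without CDAHFD replicate 2 at 1 week, with adjusted p from 0.0641 to 0.211.

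**Figure D3:**
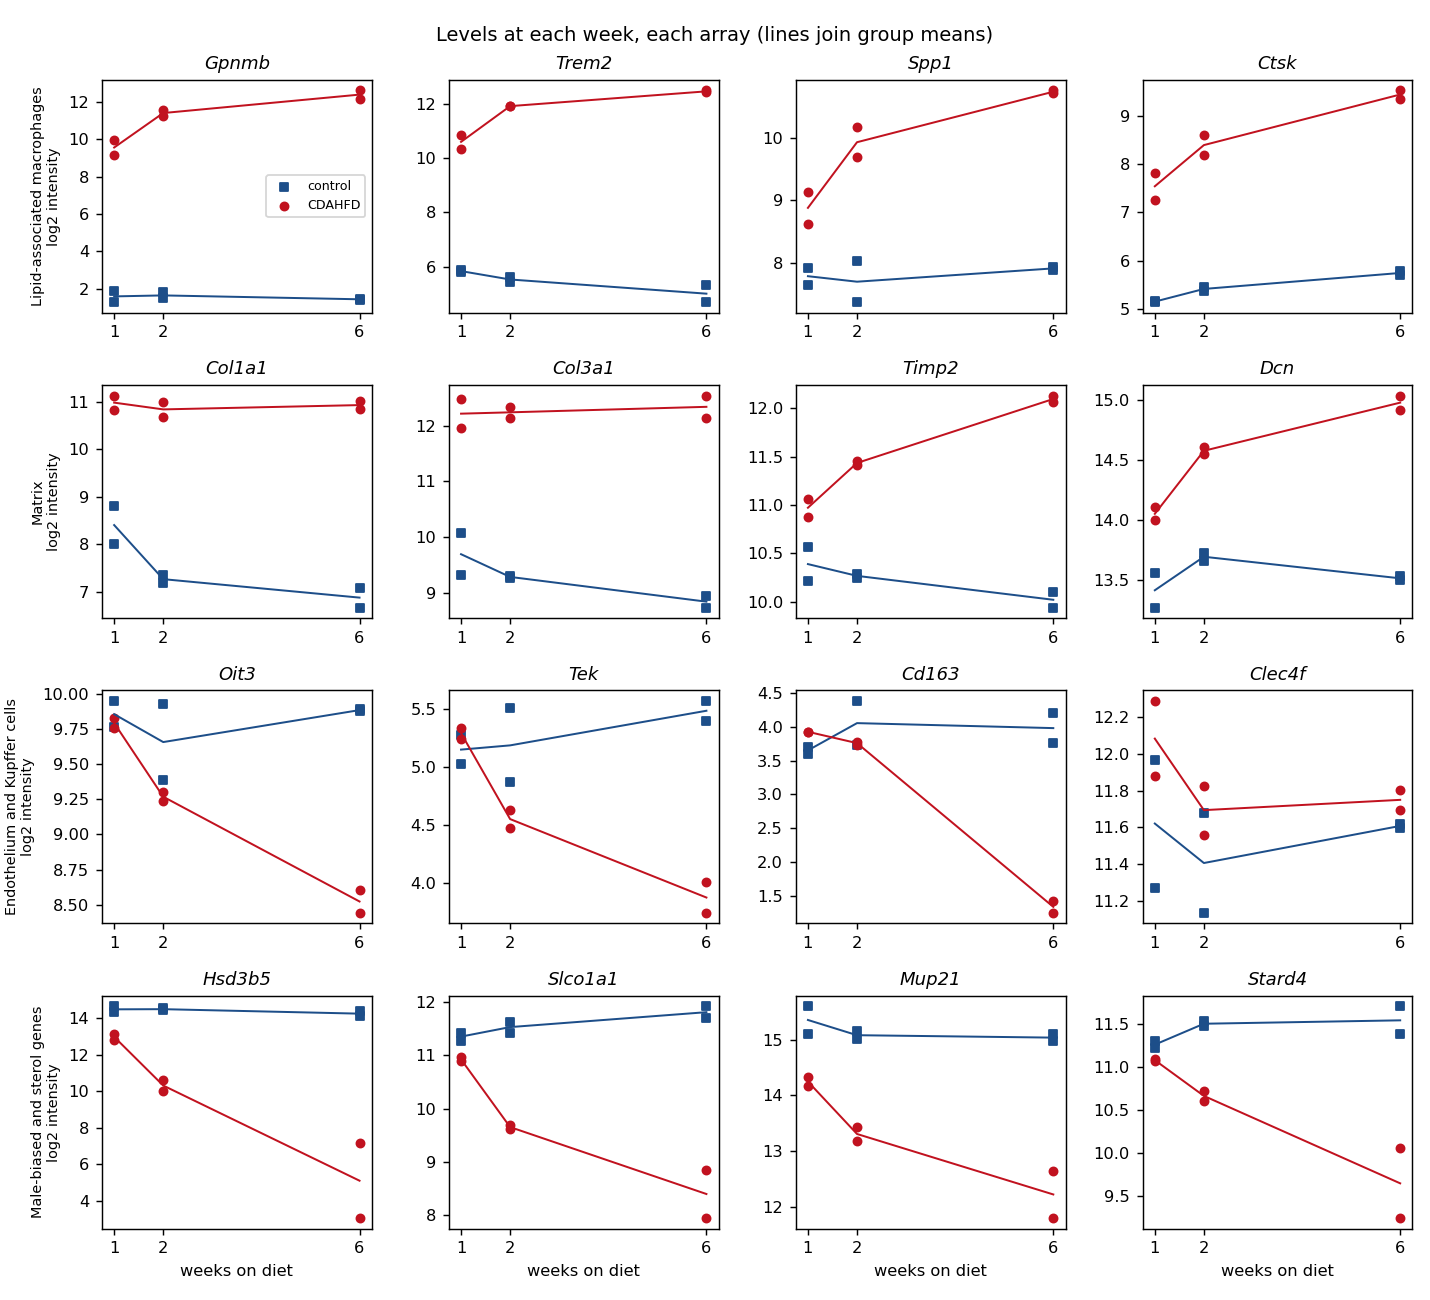
Log2 normalised intensity at 1, 2 and 6 weeks of diet for 16 genes, 1 point per array, with lines through the group means; circles are CDAHFD and squares control arrays. Gpnmb, Trem2, Spp1 and Ctsk climb on CDAHFD, Col1a1 and Col3a1 stay level there while they drop in controls, and Oit3, Tek, Hsd3b5 and Slco1a1 decline on CDAHFD and not in controls. The vertical axes differ between panels and do not start at 0.

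Some endothelial genes fell. Of 25 sinusoidal and vascular endothelial markers 5 fell and 0 rose, with a median of -0.41 against 0.02 in controls. With median centring 2 were called lower and the median was -0.26. Oit3, a gene of sinusoidal endothelium, read 9.76 and 9.83 at 1 week, 9.23 and 9.30 at 2 weeks and 8.44 and 8.6 at 6 weeks (-1.27 ± 0.16, adjusted p = 0.0033). The controls of these weeks lay between 9.76 and 9.95, and the 6-week CDAHFD arrays lay below all of them. Tek, the angiopoietin receptor, fell by 1.42 (-0.36 with normexp, adjusted p = 0.518), Kdr, the VEGF receptor, by 0.60, Cdh5, the junction protein VE-cadherin, by 0.73, and Bmp2, the endothelial signal that drives hepcidin in hepatocytes, by 0.69. Oit3, Tek and Kdr were also called against the control change. The defining markers Stab2, Lyve1 and Pecam1 differed by -0.43, -0.66 and -0.58 and were not called (adjusted p = 0.068, 0.19 and 0.143). Oit3 kept its call with any array left out, and so did Esam, an endothelial junction gene outside the list that was picked out after its values were seen (-1.15, adjusted p = 0.00278). Of the 5 calls 2 were kept without CDAHFD replicate 1 at 1 week, 1 without replicate 2 at 1 week (adjusted p of the others from 0.0799 to 0.226) and 2 without replicate 1 at 6 weeks.

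Resident Kupffer cell markers did not move as a group. Of 14 measured, 2 fell and 0 rose, beside 3.01% of all genes called lower. The median of -0.06 turned to 0.09 with median centring of the arrays. The 2 were Cd163, given above, and Cdh5, which Kupffer cells share with endothelium. Clec4f, the lectin that defines Kupffer cells, read 11.88 and 12.29 at 1 week and 11.80 and 11.69 at 6 weeks (-0.33, adjusted p = 0.465), and Vsig4 and Cd5l differed by 0.33 and 0.24. Timd4, lost from recruited macrophages, read 6.47 and 7.27 at 1 week and 4.69 and 3.67 at 6 weeks, where 1 array was above background. That difference of -2.69 had an adjusted p of 0.123, and the gene was read in a region of dim spots on control replicate 1. Cd163 kept its call with any array left out and Cdh5 lost it without CDAHFD replicate 2 at 1 week (adjusted p = 0.139).

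Some male-biased hepatocyte genes fell, and some female-biased genes rose. Of 34 sex-biased and growth hormone regulated genes 10 fell and 3 rose, with a median of -0.48. In controls 8 fell and 1 rose, with a median of -0.27, and 4 were called lower and 2 higher both on CDAHFD and against the control change. Hsd3b5, a steroid dehydrogenase of male liver, read 12.82 and 13.13 at 1 week, 10.01 and 10.62 at 2 weeks and 3.06 and 7.16 at 6 weeks, where 1 of 2 arrays was above background. The controls of these weeks lay between 14.12 and 14.64. Both 6-week arrays were below the 1-week arrays and 4.10 apart, and the difference was -7.86 ± 1.18 (SE; adjusted p = 0.0182), not called against the control change (adjusted p = 0.056). Serpina4-ps1, given above, is also in this list. Slco1a1, an organic anion transporter, read 10.89 and 10.96 at 1 week and 7.95 and 8.85 at 6 weeks (-2.53, adjusted p = 0.00115) with controls of these weeks between 11.28 and 11.92. Mup21 fell from 14.16 and 14.33 to 11.79 and 12.64, Mup3 by 1.00, Ugt2b1 by 1.07 and Cyp7b1, an oxysterol hydroxylase, by 1.90. Members of the Mup family are near-identical in sequence, so a probe may read several. Mup3 fell in controls as well (-0.82, adjusted p = 0.00551).

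Cyp3a16, higher in females, rose by 1.21 from 10.03 and 10.03 to 11.52 and 10.97, against -0.37 in controls. Cyp2b9 and Cyp2b13, the other female-biased genes of the list that rose, were chosen after their values were seen. Cyp2b9 read 4.51 and 4.66 at 1 week and 7.35 and 5.96 at 6 weeks, and Cyp2b13 was below background at 1 week and at least 3.27-fold higher at 6 weeks. Ghr, the growth hormone receptor, differed by -0.35 (adjusted p = 0.11), and by -0.59 by its other probe (unadjusted p = 4.45e-04 in limma). Igf1, the main output of that receptor, differed by -0.52 (adjusted p = 0.149), and by -0.28, -0.14 and -0.004 by its other probes. In controls Igf1 fell by 1.11 (adjusted p = 0.00691). Slco1a1 and Mup21 kept their call with any array left out, and the other 11 calls of the list were lost without CDAHFD replicate 2 at 1 week, with adjusted p from 0.063 to 0.176. Lifr, a cytokine receptor with a high level in liver, was picked out after its values were seen. It fell by 1.62 (adjusted p = 0.00278), against -0.52 in controls, and kept its call with any array left out. The motif TTCNNNGAA, read by STAT5, stood in 0 of the 11 promoters matched to the 13 called sex-biased genes, against 7.02% of all promoters of the table.

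Some sterol genes fell at 6 weeks. Of 31 genes of cholesterol synthesis and sterol sensing 5 fell and 1 rose, with a median of -0.53 against 0.20 in controls, and 2 genes had a difference above 0. With median centring 1 was called lower and the median was -0.39. Stard4, a sterol carrier, read 11.09 and 11.06 at 1 week and 9.24 and 10.05 at 6 weeks (-1.43, adjusted p = 0.00611), with controls between 11.21 and 11.70. Insig1, the sterol sensor, fell by 1.23, and the synthesis enzymes Idi1 and Tm7sf2 by 1.01 and 0.54. Abcg1, which exports cholesterol, rose by 0.89. Sqle, an early enzyme of the sterol branch, differed by -1.29 and was not called. The 2 arrays of 6 weeks were apart here: Sqle stood at 10.17 and 11.38. All 6 calls were lost without CDAHFD replicate 2 at 1 week (adjusted p from 0.0686 to 0.242), and 1 was kept without replicate 1 at 6 weeks. In bile acid genes 4 of 25 fell and 0 rose, Slco1a1 and Cyp7b1 by the most. Cyp7a1, the rate-limiting enzyme of bile acid synthesis, differed by -1.07 (adjusted p = 0.165), and Abcb11, the bile salt export pump, by -0.47 (adjusted p = 0.0573).

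Some lipid droplet and uptake genes rose. Of 30 measured 6 rose and 0 fell, with a median of 0.52, while 5 rose and 4 fell in controls, with a median of 0.14. Plin4, a droplet coat protein, read 8.89 and 8.75 at 1 week, 11.73 and 11.28 at 2 weeks and 11.91 and 11.76 at 6 weeks (3.02, adjusted p = 0.00394), and rose by 2.71 in controls. Cd36, a fatty acid receptor, rose by 1.61 on CDAHFD and 0.90 in controls, and Fitm1 by 1.16 in both. Plin5 rose by 0.84, against -0.08 in controls. Plin2 and Cidec differed by 0.50 and 0.81 and were not called. Of the 6 calls, 0 were kept without CDAHFD replicate 2 at 1 week (adjusted p from 0.0522 to 0.243), and 3 were kept without either replicate 1 of the CDAHFD arrays. Of 35 genes of fatty acid oxidation and ketogenesis 1 rose, Ucp2, a mitochondrial carrier (0.98), and Cpt1a and Ppara differed by 0.38 and -0.12. Of 29 genes of lipogenesis 0 were called, with 5 at an unadjusted p under 0.05 in limma.

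Drug-metabolising genes moved both ways, 5 up and 9 down of 35. Cyp3a11 rose by 0.96, while it differed by -0.55 in controls, Cyp1a2 fell by 0.80 and the aldehyde oxidase gene Aox3 by 0.77. Cyp2e1 differed by -0.15. Of the 14 calls, 1, that of Sult1e1, was kept without CDAHFD replicate 2 at 1 week. Among genes set by position along the lobule, Rhbg, an ammonium channel next to the central vein, rose from 9.85 and 9.71 to 10.98 and 11.02 (1.22, adjusted p = 0.00246), against -0.45 in controls, and kept its call with any array left out. Its neighbours Glul and Oat differed by 0.44 (not called) and 0.88. In the glutathione list 2 of 28 rose and 2 fell: Gpx3, a secreted peroxidase, rose by 1.59 and Gsta4 by 0.76, and Cbr3, a carbonyl reductase gene, fell by 1.96 and Gclc, of the first step of glutathione synthesis, by 0.77. In the oncofetal list 5 of 22 rose and 1 fell, with a median of 0.66. Beside H19 these were the pancreatic trypsin inhibitor gene Spink1 (1.75), Akr1b10 (0.73), Akr1b8 (0.66) and Fabp4 (named after its values were seen), and the fall was that of Cbr3. Afp and Gpc3, the fetal markers of hepatocellular tumours, differed by 0.36 and -0.13. Without CDAHFD replicate 2 at 1 week 0 of the calls of the glutathione and oncofetal lists were kept, with adjusted p from 0.0522 to 0.294.

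**Figure D4:**
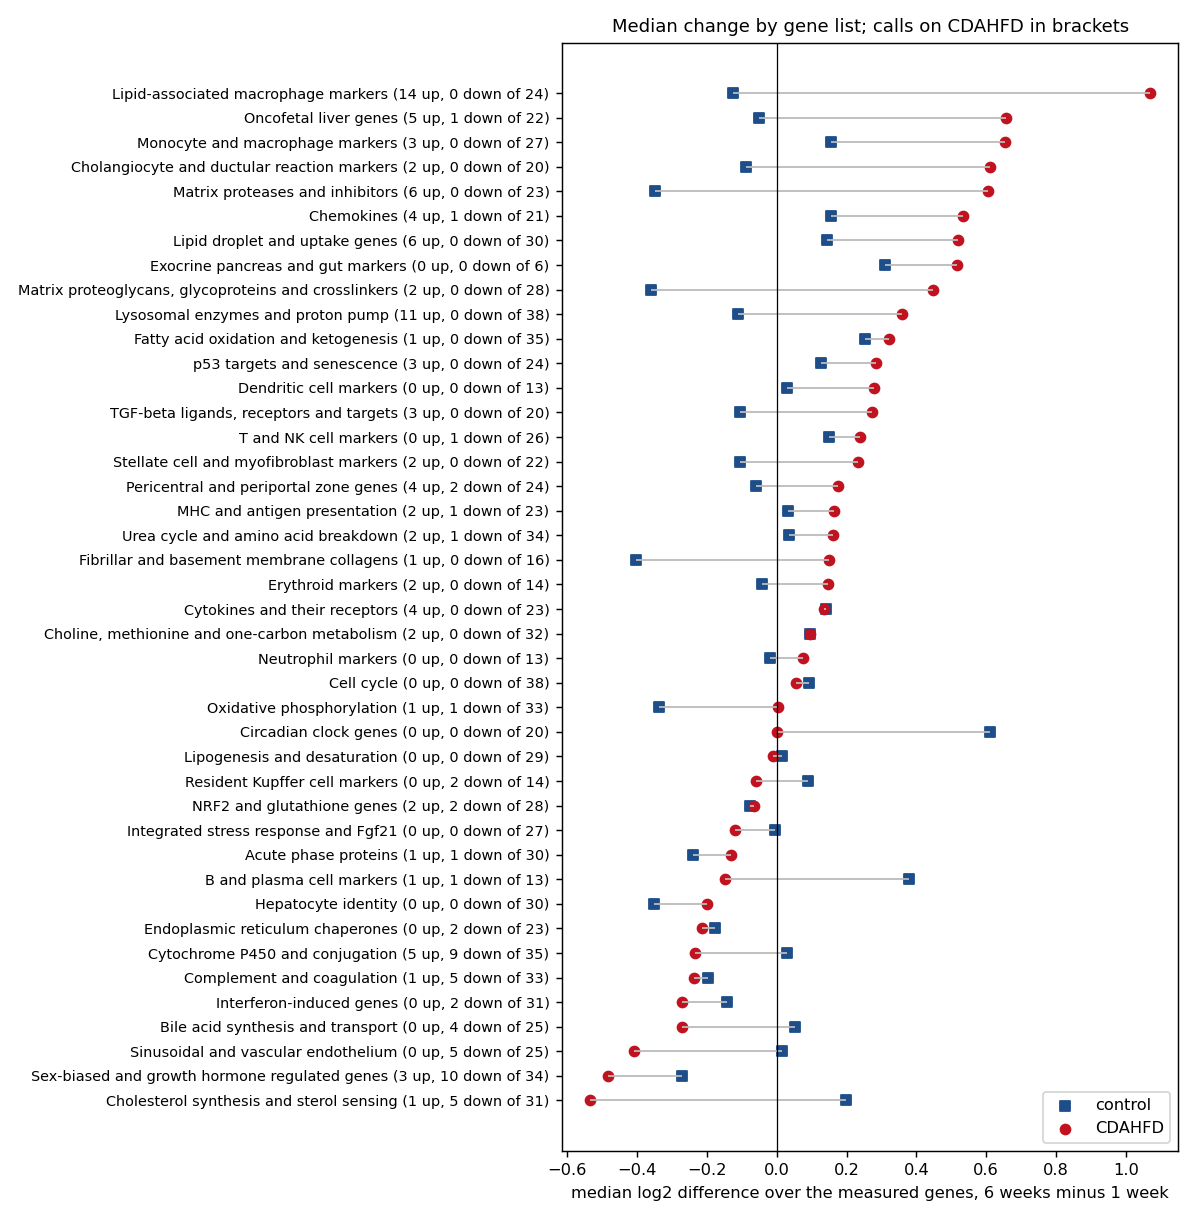
Median log2 difference, 6 weeks minus 1 week, over the measured genes of each of the 42 lists, on CDAHFD (circles) and on the control diet (squares); the brackets give the number of members called higher and lower on CDAHFD. Lipid-associated macrophage markers have the highest CDAHFD median (1.07) and cholesterol genes the lowest (-0.53).

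Other groups are given by their counts, beside 6.88% called over all genes. Hepatocyte identity genes had 0 calls of 30 measured on CDAHFD, with 7 at an unadjusted p under 0.05 in limma and a median of -0.20, while 12 fell and 3 rose in controls. Alb, albumin, differed by -0.13 on CDAHFD (15.58 and 15.95 at 1 week, 15.74 and 15.54 at 6 weeks) and fell by 1.30 in controls. Of 38 cell cycle genes 0 were called, 1 at an unadjusted p under 0.05, and at 1 week 31 were already higher on CDAHFD than in controls and 1 was lower, where 40.9% of all genes tested were called between the diets, and 40.7% at 6 weeks. Of 13 neutrophil markers 0 were called (3 at an unadjusted p under 0.05), and S100a8 and S100a9 differed by 0.26 and 0.07. Dendritic cell markers had 0 calls of 13 (3 unadjusted) and the integrated stress response 0 of 27 (4 unadjusted). T and NK cell markers had 1 call of 26, a fall of Cd4 by 0.86, against a list median of 0.24. At an unadjusted p under 0.05 in limma, 5 of that list were higher and 1 lower. Interferon-induced genes had 2 falls of 31 (Ifit1 by 0.97 and Dhx58 by 0.79), with 10 lower and 0 higher unadjusted and a median of -0.27. The list of endoplasmic reticulum chaperones and their regulators had 2 falls of 23. These were Ern1, the stress sensor IRE1, by 1.43 and Xbp1 by 0.63, neither of which is a chaperone. Ductular markers had 2 rises of 20, with 9 higher and 1 lower unadjusted and a median of 0.61. The rises were those of Sox9 (1.02, and with normexp 0.63, adjusted p = 0.0826) and Spp1. Epcam differed by 1.12 (adjusted p = 0.0518) and Krt19 by -0.01. Circadian clock genes had 0 calls of 20 on CDAHFD (1 unadjusted), against 6 rises in controls. For blood in the tissue, 2 of 14 erythroid markers rose, Hbb-b1 by 0.97 and Car2 by 1.04, while Hba-a1 and Alas2 differed by 0.31 and 0.05.

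Some changes ran the same way in both diets, and others ran in opposite ways. The direction was the same, with a call in each diet, in 157 of the 13900 genes tested. Over these genes 6.88% were called on CDAHFD and 15.9% in controls, and the overlap was not tested against these shares. Those higher by the most on CDAHFD were Plin4, Flacc1 (at least 2.62-fold), Ctcflos (2.17), the acetyltransferase gene Nat8 (1.64 on CDAHFD and 1.19 in controls) and Cd36. Those lower by the most were Cd209f, Acsm2, Mup6, Tcf24 (at least 1.84-fold) and Sox10 (at least 1.52-fold). Nat8, Cd209f, Acsm2 and Mup6 kept their call with any array left out, and the other 6 lost it without CDAHFD replicate 2 at 1 week, with adjusted p from 0.0522 to 0.196. The direction was opposite in 48 of the 13900 genes, 29 of them higher on CDAHFD. The 5 furthest apart that were higher on CDAHFD were Syngr1, Miox (1.42 on CDAHFD, at least 3.12-fold lower in controls), Vsig8 (2.09), Veph1 (1.49) and Trem2. Vsig8 and Veph1 lay below background on the control arrays of both weeks, which gives their control change no size. With normexp Flacc1, Tcf24, Sox10, Miox (0.84, adjusted p = 0.0667) and Veph1 (0.54, adjusted p = 0.333) were not called on CDAHFD. Vegfa, the endothelial growth factor, fell from 10.69 and 10.44 to 10.21 and 9.91 on CDAHFD (-0.51, adjusted p = 0.0453) and rose by 1.29 in controls. Eif2s3x, Pbld2 and Meiob also fell, by 0.74, 0.89 and 0.71 on CDAHFD, and rose by 0.88, 0.60 and 0.73 in controls. The other Eif2s3x probe differed by 0.02 on CDAHFD, and the mean of the probes by -0.36 (adjusted p = 0.11). Of these 9 genes Trem2 kept its call with any array left out, and the 4 falls were all lost without either 1-week CDAHFD array (adjusted p from 0.112 to 0.133 without replicate 2).

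The 2 arrays of 6 weeks of CDAHFD were unlike each other in some gene groups. At least 2-fold differences were found in 654 genes (4.71%) between the 6-week arrays and 158 (1.14%) between the 1-week arrays. Of 38 cell cycle genes 24 were at least 2-fold lower in replicate 1, with a list median of -1.16 (replicate 1 minus replicate 2) against 0.12 between the 1-week arrays. Mki67, a marker of cycling cells, stood at 8.34 and 9.48, and Top2a at 5.15 and 6.30. Fatty acid oxidation and ketogenesis ran the other way, with a list median of 0.83, and 13 of 35 genes at least 2-fold higher in replicate 1. The genes named next were chosen after their values were seen. Pdk4, which spares glucose, stood at 11.86 and 8.20, Acot1 at 12.16 and 9.0 and Cyp4a10 at 15.13 and 12.54, all targets of PPAR-alpha. Scd1, the stearoyl-CoA desaturase, stood at 7.05 and 10.32, Fasn at 6.41 and 8.75, and Srebf1 at 7.10 and 8.54. The 1-week arrays of Scd1 read 8.49 and 8.33, so 1 array of 6 weeks lay below and 1 above them. The macrophage list, by contrast, had 0 of 24 genes 2-fold apart. Without replicate 2 at 6 weeks 18 of the 35 oxidation genes were called higher, and without replicate 1 0 were higher and 1 lower.

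**Figure D5:**
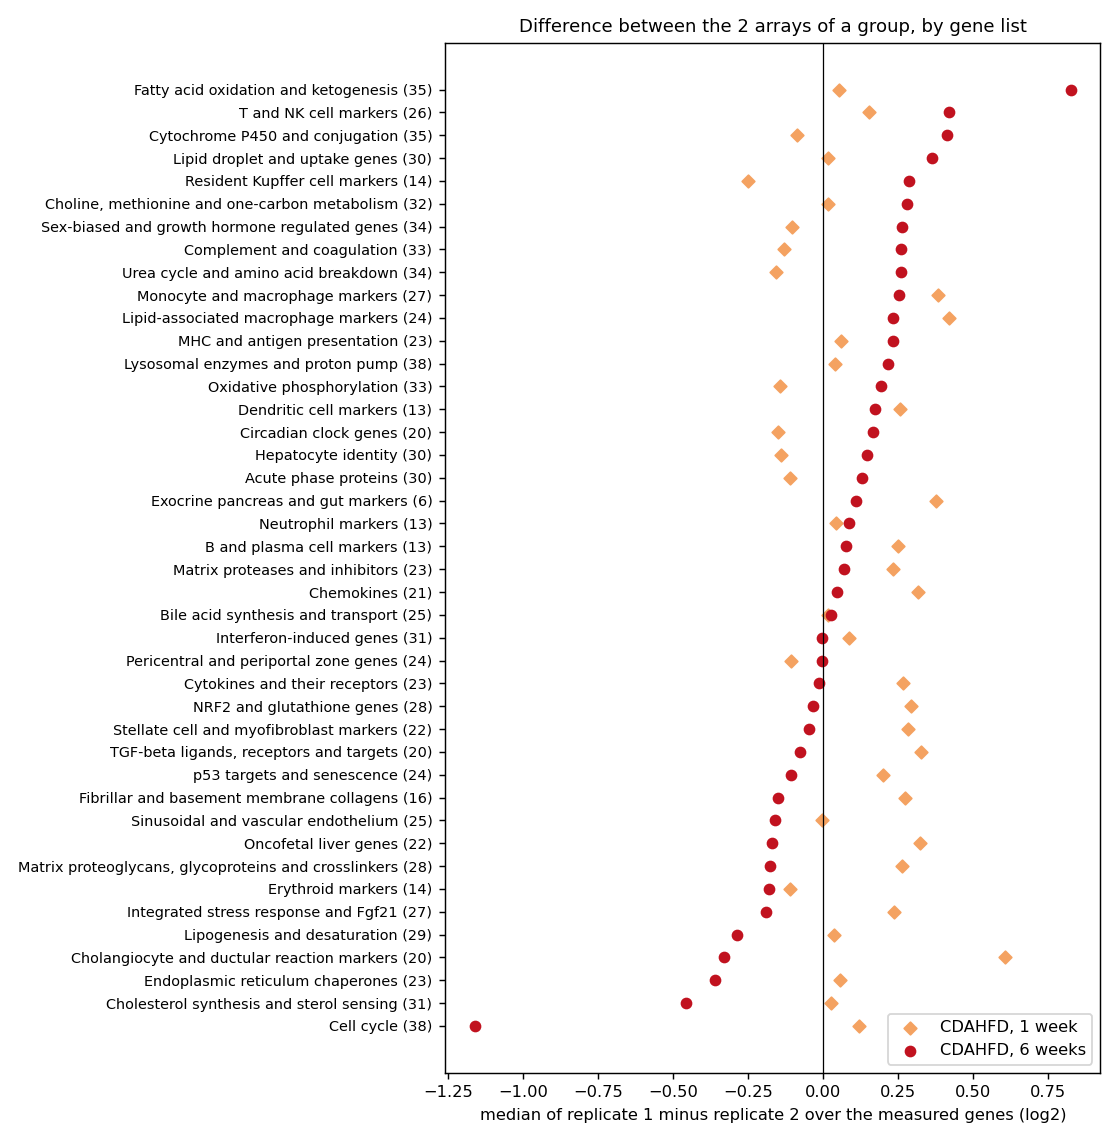
Median of replicate 1 minus replicate 2 (log2) over the measured genes of each list, for the 2 CDAHFD arrays at 6 weeks (circles) and the 2 at 1 week (diamonds); the number of measured genes is in brackets. Cell cycle genes (-1.16) and fatty acid oxidation genes (0.83) stand furthest apart between the 6-week arrays.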

How the data were processed

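Liver RNA (150 ng per sample, labelled with Cy3, per the labels' protocols) was hybridised to 12 single-colour Agilent arrays, 2 in each of 6 groups of diet and week. The deposited files hold the scanner's intensity for each spot; per the submitters' processing notes they were made with Feature Extraction 10.7, while the file headers give 11.5.1.1, and which applies is unsettled. Processed intensities, already background-subtracted per the file headers, were scaled by subtracting each array's 75th percentile (log2, over 20137 probes well above background on all 12 arrays), plus a constant. Control spots and outlier flags were left out (54 values missing), and 0 gene spots were saturated. Of 55681 probes, 28664 were named through unversioned RefSeq accessions (21613 symbols), and 27017 stayed unnamed and untested. Probes were kept where some group had both its arrays well above background, and a gene was read by its brightest kept probe, which left 13900 genes. Of these, 3618 had several such probes.

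Differences were tested with limma 3.58.1 (R 4.3.3; group means, eBayes with trend and robust variance) on all 12 arrays and adjusted by Benjamini-Hochberg, and genes under 0.05 were called. Every adjusted p given comes from limma. Genes named are the 15 with the largest difference each way among those called on CDAHFD and against the control change, the 5 each way called alike or oppositely in both diets, and of each list described the first 3 members and up to 5 with the smallest p, and the defining cell type markers; others are said to be chosen after their values were seen. Some genes that this rule takes are not reported here. The members and the 42 lists (991 of 1083 symbols measured) were chosen with earlier results of these data known. The analysis was tested on simulated data. The number of arrays limits the precision. For the normexp alternative the median signal column (offset 50) replaced the mean signal, which the files used here do not have. Other scalings, filters, probe rules, variance models and sets of arrays were tried, and leaving out each array of week 2 was added after seeing the data.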

Additional observations from a re-analysis of the deposited data

Results flagged for a closer look

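In 748 genes the change from 1 to 6 weeks differed between the diets by the interaction test in limma at an adjusted p under 0.05. The values below are the log2 change on CDAHFD minus the log2 change in controls for genes named in the text or in its lists. Among the genes that rose most on CDAHFD it was 4.82 for Themis, 3.64 for Npy, 3.63 for Meltf, 3.50 for Gldn, 4.21 for Ntrk2, 3.68 for Cib3, 2.32 for Sult1e1, 3.18 for Trim29, 3.93 for H19, 2.98 for Gpnmb, 2.03 for Cd207, 2.58 for Fndc10, 4.20 for Syngr1, 2.50 for Scn10a and 2.85 for Prss46. Among those that fell most it was -6.85 for Serpina4-ps1, -2.43 for Cd209f, -2.30 for Acsm2, -3.10 for Olfr125, -3.28 for Ugt2a1, -3.69 for Dct, -4.08 for Wif1, -1.80 for Mup6, -1.90 for Pax2, -2.93 for Cd163, -2.72 for B3gnt5, -2.98 for Slco1a1, -1.71 for Mup21, -3.27 for Ptpn3 and -2.65 for Tmprss9. For genes called in opposite directions it was 3.54 for Miox, 3.31 for Vsig8, 3.21 for Veph1, 2.69 for Trem2, -1.79 for Vegfa, -1.62 for Eif2s3x, -1.49 for Pbld2 and -1.45 for Meiob. For macrophage, lysosomal and phagocytic genes it was 1.72 for Spp1, 0.90 for Ctsd, 2.12 for Capg, 2.02 for Lpl, 1.30 for Ctsk, 0.74 for Gusb, 1.1 for Cd68, 1.06 for Cd63, 2.05 for Ms4a7 and 2.10 for Mfge8. For endothelial genes it was -1.30 for Oit3, -1.75 for Tek, -0.83 for Kdr and -0.78 for Esam. For matrix and TGF-beta genes it was 1.47 for Col1a1, 1.25 for Col6a1, 0.82 for Dcn, 0.76 for Loxl2, 2.40 for Mmp2, 1.5 for Timp2, 1.78 for Adam8, 1.35 for Mmp23, 1.35 for Pdgfb, 1.20 for Ltbp3 and 0.71 for Tgfbi. For growth hormone related and drug-metabolising genes it was -0.78 for Ghr, -1.1 for Lifr, 1.58 for Cyp3a16, -1.14 for Ugt2b1, 1.51 for Cyp3a11, -0.99 for Cyp1a2, -1.05 for Aox3 and 3.24 for Cyp2b9. For lipid, redox, zonal and fetal genes it was -1.71 for Stard4, -1.69 for Idi1, 1.32 for Ucp2, 2.56 for Spink1, 1.67 for Rhbg, 2.27 for Gpx3, 0.94 for Gsta4, -1.19 for Gclc and 1.17 for Alb. For chemokines and single genes of other lists it was 1.09 for Cxcl14, 0.65 for Ccl9, 1.56 for Cx3cl1, 1.36 for Phlda3 and 1.06 for Car2. Cd63 and Ms4a7 were named after their values were seen. Col1a1, Alb and Ghr were not called on CDAHFD itself, and Gldn and Gsta4 were read where control replicate 1 at 1 week had dim spots. For 25 of these 85 genes, among them Themis, Npy, Meltf, Gldn, Olfr125, Ugt2a1, Wif1 and Ptpn3, at least 1 group of week 1 or 6 lay below background on both arrays. Their values are fitted differences that depend on unmeasured signals and are no measure of size, and those of Cd209f, Acsm2, Cd163, B3gnt5 and Ptpn3 turned positive with normexp. No explanation of these differences was tested.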

How the results depend on the processing

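Of the 956 genes called between 6 weeks and 1 week of CDAHFD, 0 were called in the opposite direction under any alternative run; the sign turned in 1 with normexp and in 2 with the mean of a gene's probes. The total called was 510 with median centring (458 of the 956 among them), which moved the median of all genes to 0.141, 494 with array weights (493), 299 with only the 4 CDAHFD arrays (260), 612 with only the 8 arrays of weeks 1 and 6 (572), and 376 at 2-fold or more. The control count was 1056 with normexp, 252 with the controls of weeks 1 and 2 together, and 621 at 2-fold. The difference between diets had 225 calls with median centring, 297 with 8 arrays, 203 with the pooled early controls and 445 at 2-fold. Genes called on CDAHFD and against the control change numbered 84 with median centring, 201 with array weights, 141 with 8 arrays, 173 with pooled early controls and 155 at 2-fold. Week 2 against week 1 gave 17 with median centring, 60 with normexp, 17 with the mean of probes, 11 without a trend, 360 with array weights and 21 at 2-fold. Week 6 against week 2 gave 19, 4, 21, 7 and 8 with median centring, quantile normalization, normexp, the mean of probes and masked dim spots. With masked dim spots there were 1017 calls on CDAHFD, 2273 in controls, 815 for the difference between diets and 339 for both conditions. The cause of these shifts was not tested, but for fewer arrays and the added 2-fold bar.

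With 1 array left out, the 6 counts ranged from 71 to 1299 (CDAHFD, 6 weeks against 1), 549 to 2726 (control), 129 to 941 (difference between diets), 31 to 447 (both conditions), 0 to 99 (week 2 against 1) and 2 to 138 (week 6 against 2). The share higher moved from 56.3% to 63.9% with normexp on CDAHFD, from 46.7% to 65.5% for the difference between diets, and from 63.7% to 79% for both conditions; in controls it moved from 53.9% to 83.6% with median centring and 43.4% with normexp. With normexp the difference between diets turned positive for Cd209f (0.05), Acsm2 (0.44), Cd163 (0.18), B3gnt5 (0.22) and Ptpn3 (0.10), all dim, and Loxl2 was -0.12 with the mean of its probes.

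Arrays of 1 replicate number deviated together weakly or not at all (correlations from -0.14 to 0.22), and the numbers were not used as pairs in the main fit. With the replicate number as a block, the counts in the order of the ranges above were 932, 2176, 697, 291, 32 and 2. A block for slide, which is fixed by week, leaves the difference between diets at 748 calls by construction and tests nothing. Signal over background limits the dim genes, whose folds are lower bounds.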
